A study of Lathyrus oleraceus with 9 samples.

Results

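The longest of 3 ageing times, 15 d, was compared with no ageing in dry seeds of pea (Pisum sativum cv Alaska Early), on 3 of the 9 arrays of the series and over all 5246 probes. The 3 arrays were chosen by their label, which sets non-aged against 15 d aged seeds, and no measured value entered that choice. Seeds equilibrated at 60% relative humidity to a moisture content of 12% were held at 50°C for 15 d, and the other 6 arrays hold seeds kept in the same way for 8 d or 12 d. Control seeds were non-aged, and each replicate was 20 seeds, so that 1 value is a mean over pooled whole seeds. On each array RNA from aged and non-aged seeds was hybridised together in 2 colours, with aged seeds in the other dye on replicate 2. Each value is a log2 ratio with aged seeds over the non-aged, in which 1 stands for a 2-fold higher and -1 for a 2-fold lower signal. The labels do not say whether the non-aged RNA was the same in the 3 ageing times.

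A dry seed carries messenger RNA stored during its maturation on the parent plant, together with storage proteins, oil and protective proteins. Much of that RNA codes for the machinery of protein synthesis, which the embryo uses early in imbibition, before newly made transcripts take over. During warm and humid storage seeds lose vigour and, later, viability, while their nucleic acids, proteins and lipids are damaged. The study reports partial RNA degradation in these seeds from its earliest ageing time, with high germination kept through the longest time used here. It describes the RNA put on the arrays as of satisfactory quality. How far RNA degradation contributed to the ratios, or to differences between probes of the same product, was not tested.

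An array ratio is relative to the other probes, because normalization sets the middle of each array near 0. A loss of RNA shared by all transcripts is therefore not visible, and a higher ratio can belong to a transcript that was lost more slowly than most. In these pooled whole seeds, fewer cells of a type and less RNA per cell cannot be told apart, nor can synthesis and breakdown. No marker of a tissue or cell type could be checked, since ratios hold no levels.

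At 15 d, 3803 probes passed the test, 72.5% of all probes, 2006 of them higher (38.2%) and 1797 lower (34.3%). The test was limma's moderated statistic over all 9 arrays, two-sided, at an adjusted p under 0.05. With a 2-fold change asked for as well, 668 probes were called, 12.7% of those tested. Of these 296 were called higher (5.64%) and 372 lower (7.09%), each with 1 sign on all 3 arrays and with an adjusted p of at most 5.6e-08. Only the fold limit therefore decided which probes were called, since no probe reached 2-fold without passing the test. The smallest mean to pass the test was 0.08 in size.

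Lower probes moved further than higher ones. Of the lower probes 43 reached 2 on the log2 scale and 133 reached 1.5, against 2 and 38 of the higher ones. With every array brought to 1 spread, the higher calls numbered 196 and the lower calls 319. The median was -1.34 among probes called lower and 1.16 among those called higher, against 0.02 over all probes. Many higher calls lay just past the limit, with 108 probes between 1 and 1.1 and another 119 between 0.9 and 1, whereas 56 and 71 lower probes lay in the matching ranges. The 3 arrays resembled each other closely. Over all probes the median SD across them was 0.06, and 317 of the lower and 197 of the higher calls had a 95% interval wholly past the limit.

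Product names were taken from the study's list of ageing-responsive genes, which names 717 of the 5246 probes. That list was made from these same arrays, by fold change at any of the 3 times, so that nearly every named probe had to lie far from 0. Of the 717, 284 were called higher at 15 d, 361 lower and 72 neither. The counts of product families below therefore describe those named probes. They are no share of a family on the array, and direction within a family is not independent evidence. No enrichment was tested. The probe identifiers begin with PSOLI or PCPS, as the deposited table gives them.

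**Figure D1:**
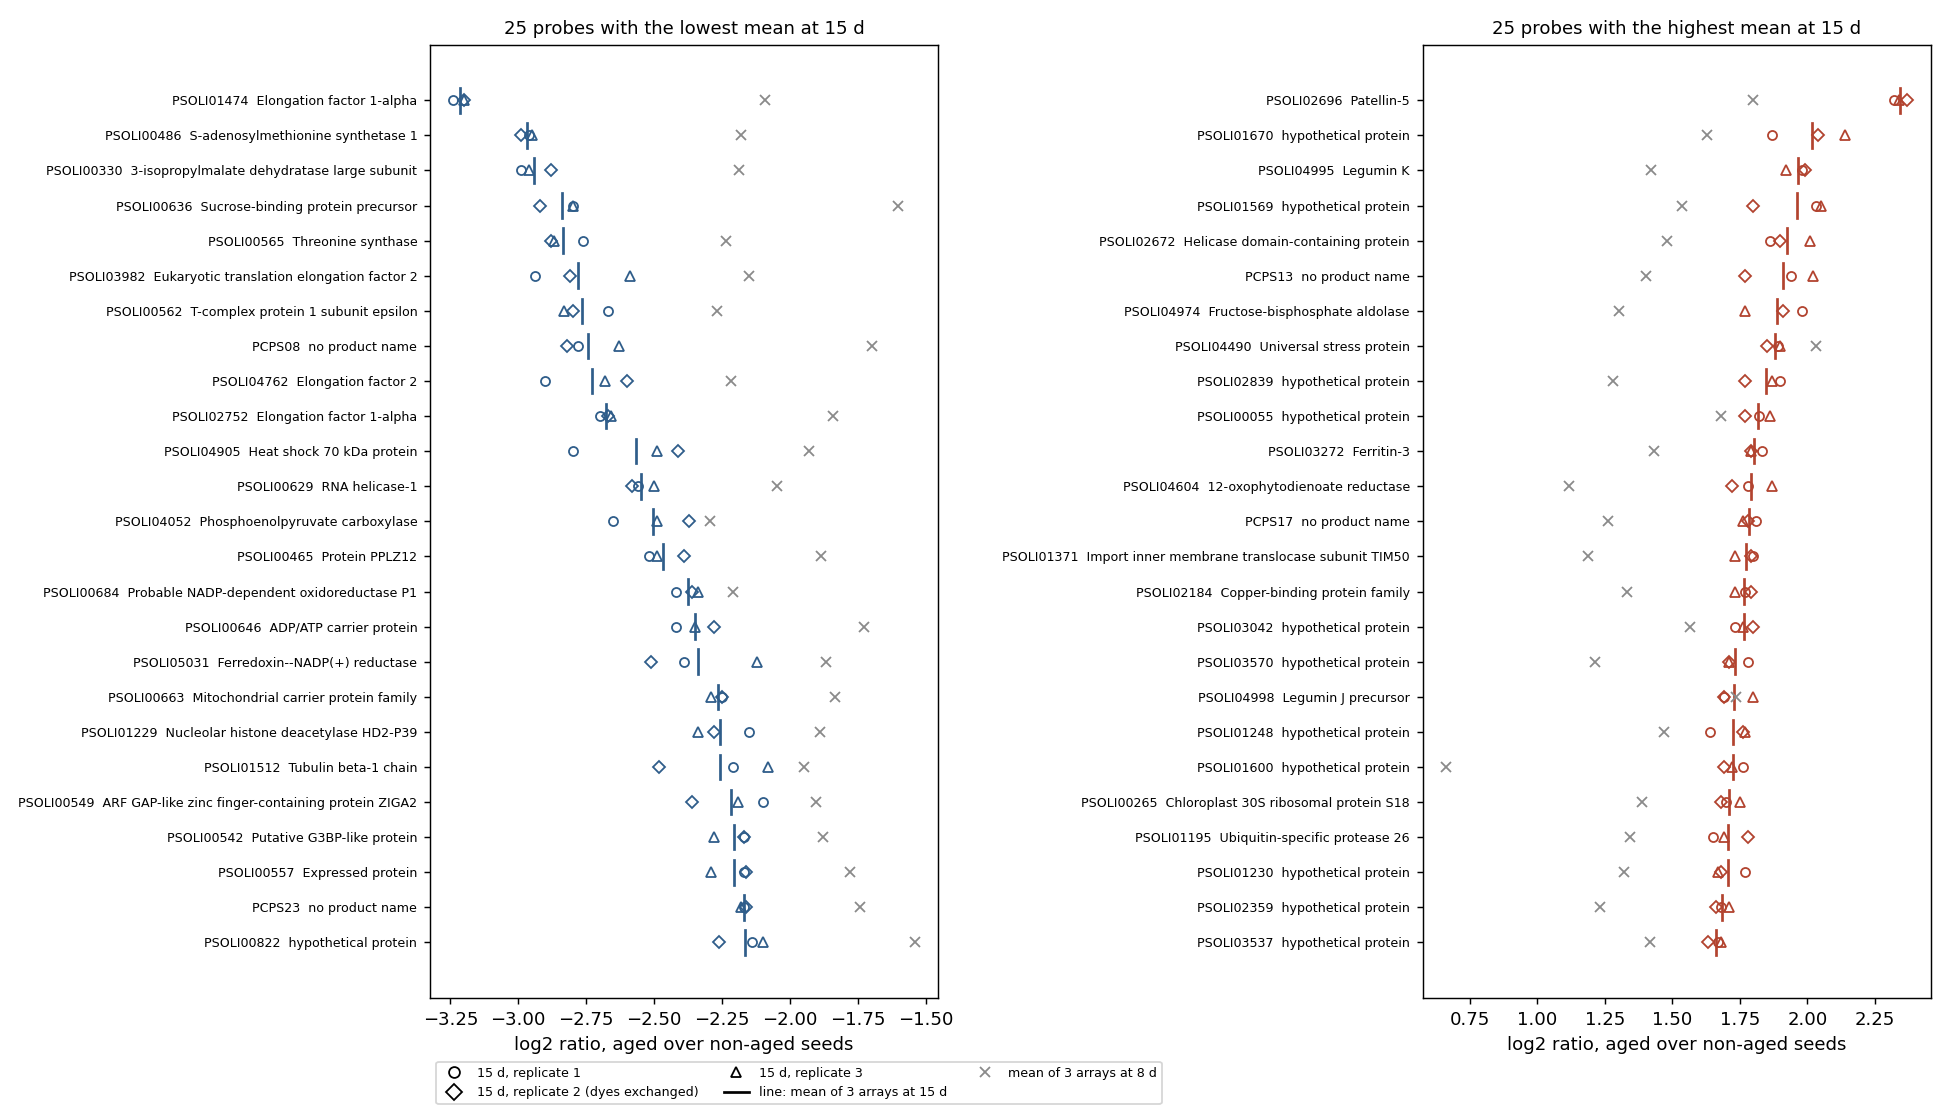
The 25 probes with the lowest (left) and the 25 with the highest (right) mean log2 ratio at 15 d, aged over non-aged seeds. Open symbols are the 3 arrays at 15 d, vertical lines their mean and crosses the mean of 3 arrays at 8 d. The lowest probe, elongation factor 1-alpha, had a mean of -3.21 and the highest, Patellin-5, of 2.34.

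Elongation factors, which carry the ribosome along the messenger RNA, held some of the lowest ratios on the array. Of 13 named probes 8 were called lower and 4 higher (2 higher with every array brought to 1 spread), with a median of -1.20. PSOLI01474, elongation factor 1-alpha, which brings aminoacyl-tRNA to the ribosome, gave -3.24, -3.20 and -3.20 on replicates 1 to 3, a 9.27-fold lower signal. PSOLI02752, also named elongation factor 1-alpha, gave -2.70, -2.67 and -2.66. Both fell on every array, as the lowest and the fourth lowest elongation factor probe. Other probes of that name rose. PSOLI03999 had a mean of 1.06, and PSOLI02555 gave 0.78, 0.85 and 0.66, past the test but short of the fold limit.

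Elongation factor 2, which moves the ribosome on by 1 codon, was represented by 5 probes that did not move alike. PSOLI03982 gave -2.94, -2.81 and -2.59, and PSOLI04762 gave -2.90, -2.60 and -2.68. PSOLI00844 and PSOLI04741 had means of -1.37 and -1.20. The remaining probe, PSOLI04147, was higher in aged seeds on all arrays, at 1.38, 1.41 and 1.44. For the plastid and mitochondrial type of machinery, elongation factor G (PSOLI04154) had a mean of -1.27 and EF-Tu (PSOLI02197) of -1.18. EF-P (PSOLI04550) and a gamma subunit of elongation factor 1B (PSOLI04359) were higher, at 1.00 and 1.18.

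Initiation and release factors also fell more often than they rose, with 7 of 10 called lower and 2 higher (1 with every array at 1 spread). PSOLI00629, named RNA helicase-1 and sharing the accession number of initiation factor 4A, the helicase that unwinds the start of a messenger RNA, gave -2.56, -2.58 and -2.50. A second probe of initiation factor 4A, PSOLI04311, gave -1.51, -1.48 and -1.47. PSOLI04624, a GTP-binding peptide chain release factor, which ends synthesis at a stop codon, had a mean of -1.89. PSOLI04630, initiation factor 5A-5, passed the test at -0.96 and missed the fold limit.

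Cytosolic ribosomal proteins were the largest family with a known product, at 57 probes. Of these 41 were called lower, 12 higher and 4 neither. At an adjusted p under 0.05, 52 lay further from 0 than at 8 d, against 542 of all 717 named probes. That count was not repeated with every array brought to 1 spread. The lowest was L22-2 of the large subunit (PSOLI04765), at -2.10, -2.12 and -2.00. S4-2 of the small subunit (PSOLI04813) gave -1.92, -1.76 and -1.81, and S15a-1 (PSOLI04201) gave -1.82, -1.78 and -1.73. Those that fell came from both subunits.

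The 12 ribosomal proteins called higher lay in a narrower range, from 1.03 to 1.27, and 6 were called higher with every array brought to 1 spread. L15-2 (PSOLI01752) gave 1.30, 1.22 and 1.29, S25-2 (PSOLI03181) gave 1.25, 1.16 and 1.27, and L38 (PSOLI02305) gave 1.12, 1.14 and 1.24. L32-1 (PSOLI04324) had 1.12 at 15 d against 0.45 at 8 d. Of 6 ribosomal proteins of the plastid type 5 were called lower (2 at 1 spread), the lowest of them chloroplast S13 (PSOLI00824) at -1.32. The other, chloroplast S18 (PSOLI00265), stood among the highest probes of the array, at 1.70, 1.68 and 1.75.

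Chaperones, which fold proteins or keep them from clumping, were called lower in 9 and higher in 5 of 15 probes. PSOLI00562, the epsilon subunit of T-complex protein 1, a cytosolic folding chamber, gave -2.67, -2.80 and -2.83. Another of its subunits, zeta (PSOLI03645), rose to 1.49, 1.41 and 1.47, while eta (PSOLI00088) had a mean of -1.11. PSOLI04905, a heat shock 70 kDa protein, gave -2.80, -2.41 and -2.49, with replicate 1 the lowest. Heat shock protein 81-3, of the Hsp90 family (PSOLI00619), had a mean of -2.13. The small heat shock proteins, which gather in maturing seeds, were represented by a class II protein (PSOLI02110) at -1.57 and a class I protein (PSOLI02041) at -1.19. The endoplasmic reticulum chaperone BiP2 (PSOLI03407) was higher, at 1.07, 1.07 and 1.01.

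Protein breakdown through ubiquitin and the proteasome was split in the same manner. Of 9 proteasome subunits 6 were called lower and 3 higher (1 higher at 1 spread), from -1.84 for a non-ATPase regulatory subunit (PSOLI02248) to 1.32 (PSOLI04626). The ATPase RPT6a (PSOLI04296), part of the ring that unfolds substrates, gave -1.70, -1.77 and -1.73. Among 21 probes for ubiquitin, conjugating enzymes, ligases and F-box proteins, 13 were called lower and 8 higher (5 higher at 1 spread). F-box/LRR-repeat protein 5 (PSOLI00977), a substrate receptor of a ubiquitin ligase, gave -2.13, -2.17 and -2.17. A probe that shares its accession number but is named hypothetical, PSOLI02499, was higher at 1.08, and was not called at 1 spread. In the other direction, the ubiquitin-specific protease UBP26 (PSOLI01195), which removes ubiquitin, gave 1.65, 1.78 and 1.69, and Cullin-1 (PSOLI00321), the scaffold of such ligases, had a mean of 1.48. Tubby-like F-box proteins 3 and 7 (PSOLI02949 and PSOLI02431) were at 1.48 and 1.31, and Tubby-like F-box protein 10 (PSOLI01498) at -1.02.

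Enzymes of the methionine cycle, which supplies methyl groups and the precursor of polyamines and ethylene, fell at several of its steps. Of 10 probes in this list 8 were called lower and 2 higher, with a median of -1.60. S-adenosylmethionine synthetase 1, which makes the methyl donor, was represented by 2 probes. PSOLI00486 gave -2.96, -2.99 and -2.95, and PSOLI04879 gave -1.56, -1.74 and -1.59. Adenosylhomocysteinase (PSOLI04530), which clears the product of methyl transfer, gave -1.91, -1.97 and -1.92. Adenosylmethionine decarboxylase (PSOLI04220) and spermidine synthase 1 (PSOLI02518), both on the way to polyamines, had means of -1.45 and -1.71. Threonine synthase (PSOLI00565), which competes with methionine synthesis for the same precursor, gave -2.76, -2.88 and -2.87. The 2 that rose were methylenetetrahydrofolate reductase 2 (PSOLI04600), at 1.23, and 1 of 2 probes for a homocysteine methyltransferase (PSOLI04228), at 1.37.

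Branched-chain and other amino acid enzymes were evenly divided, with 5 called higher, 5 lower (3 at 1 spread) and 1 neither. The large subunit of 3-isopropylmalate dehydratase (PSOLI00330), in leucine synthesis, gave -2.99, -2.88 and -2.96. The enzyme of the next step, 3-isopropylmalate dehydrogenase (PSOLI01231), was higher at 1.00, 1.07 and 1.03. Ketol-acid reductoisomerase (PSOLI02505), an earlier step shared by the branched-chain amino acids, was higher at 1.24. Glutamine synthetase (PSOLI00518), which fixes ammonium, gave -1.92, -1.83 and -1.96.

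Glycolysis held probes far from 0 in both directions, often for the same kind of enzyme. Of 12 probes 6 were called higher and 5 lower. For aldolase, which splits fructose bisphosphate, the cytoplasmic isozyme 1 (PSOLI04974) gave 1.98, 1.91 and 1.77 and another probe (PSOLI04449) gave -1.62, -1.50 and -1.53. For phosphoglycerate mutase of the kind that needs no bisphosphoglycerate, PSOLI03095 gave 1.46, 1.42 and 1.48, and PSOLI03795 gave -2.17, -2.01 and -1.93. For glyceraldehyde 3-phosphate dehydrogenase, PSOLI03899 had a mean of 1.15 and PSOLI04285 of -1.27. PSOLI03899, counted here by its name, shares its accession number with PSOLI00908, which is named for the chloroplast enzyme and was at 1.01. Whether PSOLI03899 measures the glycolytic or the chloroplast enzyme was not tested. Enolase (PSOLI04156) was lower at -1.91. Hexokinase (PSOLI01657), phosphoglycerate kinase (PSOLI04847) and pyruvate kinase (PSOLI04899) were higher, at 1.17, 1.23 and 1.16.

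Enzymes around sucrose, sugar nucleotides and oligosaccharides were called lower in 5 of 7 probes. The list also held both probes of phosphoenolpyruvate carboxylase, which makes oxaloacetate from bicarbonate and acts on no sugar, and with them 7 of 9 were lower. These gave -2.65, -2.37 and -2.49 (PSOLI04052) and -1.65, -1.60 and -1.57 (PSOLI00496). UDP-glucose 4-epimerase, which makes UDP-galactose (PSOLI00615), gave -2.06, -2.05 and -2.08. Galactinol synthase (PSOLI04962), the first enzyme dedicated to the raffinose family of seed oligosaccharides, gave -1.76, -1.80 and -1.63. Sucrose synthase (PSOLI04390) was higher, at 1.13, 1.26 and 1.13, and lower than at 8 d, when its mean was 1.64.

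The citrate cycle and pyruvate dehydrogenase were called higher in 6 of 8 probes. Aconitate hydratase (PSOLI03775) had a mean of 1.42, the E1 component of 2-oxoglutarate dehydrogenase (PSOLI02802) gave 1.26, 1.38 and 1.29, and dihydrolipoyl dehydrogenase (PSOLI03519), which both large dehydrogenase complexes share, gave 1.29, 1.25 and 1.29. Isocitrate dehydrogenase (PSOLI00366) was at 1.12. The only one called lower was an E1 beta subunit of pyruvate dehydrogenase (PSOLI00986), at -1.59, -1.40 and -1.46. The E1 alpha subunit (PSOLI01595) passed the test at -1.11, -0.75 and -1.07, and was also called lower without replicate 2, which made 2.

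Other mitochondrial products mostly went the other way, with 9 of 12 called lower. The ADP/ATP carrier of the inner membrane (PSOLI00646) gave -2.42, -2.28 and -2.35. The study also measured an adenine nucleotide translocator, a carrier of this kind, by quantitative PCR against spiked human RNA. In that assay it was significantly repressed only from an ageing time longer than any on the arrays. Whether the assay and PSOLI00646 measure the same gene was not tested. Cytochrome c-1 (PSOLI00737), of the respiratory chain, had a mean of -1.64, and a porin (PSOLI04405), a membrane channel named for the outer plastid membrane, of -1.34. The porin was counted among the 12 although its name places it in the plastid. The translocase subunit TIM50 (PSOLI01371), which receives proteins entering the matrix, was higher, at 1.80, 1.79 and 1.73. Both subunits of the processing peptidase, which trims imported proteins, were higher as well, alpha (PSOLI00013) at 1.09 and beta (PSOLI01338) at 1.18.

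**Figure D2:**
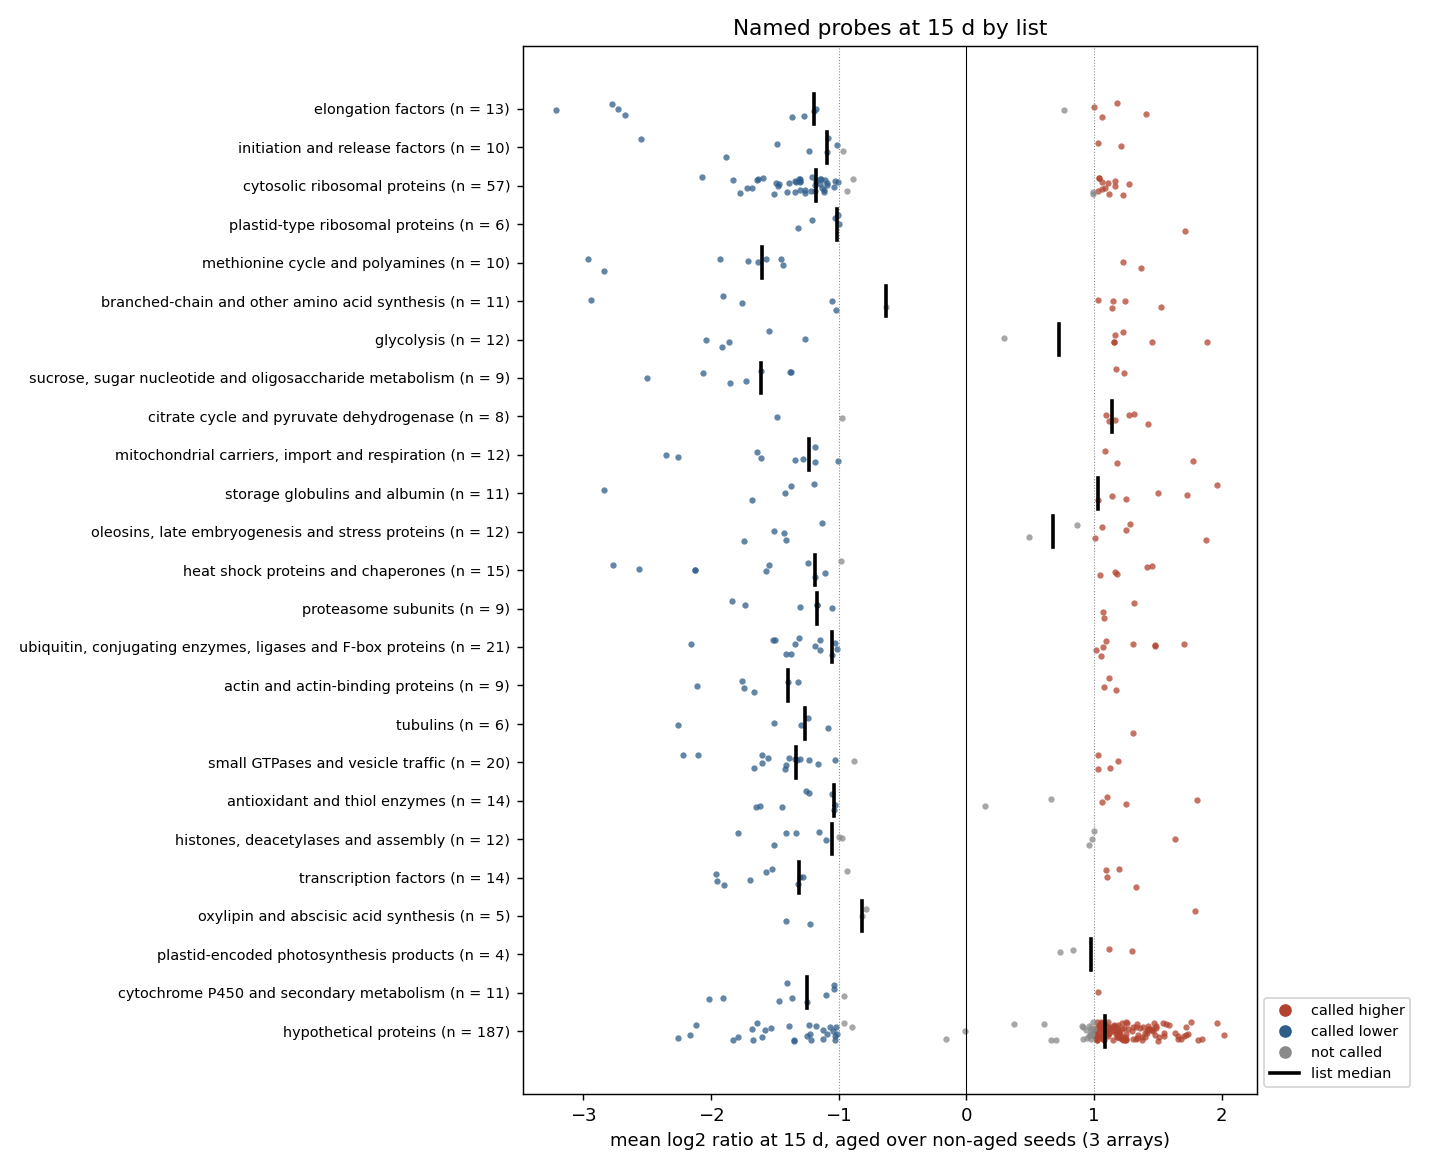
Mean log2 ratio at 15 d of each named probe, by list, aged over non-aged seeds. Points are probes (means of 3 arrays), coloured by call, with thick lines at list medians and dotted lines at -1 and 1. Most lists hold probes on both sides. The citrate cycle list has its median at 1.14 and the methionine cycle list at -1.60.

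Storage globulins, the nitrogen reserve of the pea seed, went in both directions. Of 11 probes 6 were called higher and 5 lower. All 4 legumin probes rose, of which PSOLI02001 and PSOLI04998 share an accession number. Legumin K (PSOLI04995) gave 1.98, 1.99 and 1.92, legumin J gave 1.69, 1.69 and 1.80 on 1 probe (PSOLI04998) and 0.95, 1.04 and 1.10 on the other (PSOLI04996), and legumin B (PSOLI02001) had a mean of 1.14. The 7S globulins, vicilin and convicilin, were mixed. Both probes of type A provicilin were lower, at -1.68 (PSOLI02231) and -1.20 (PSOLI02195), and convicilin (PSOLI00637) was lower at -1.36, -1.35 and -1.41. Type B provicilin (PSOLI04635) was higher at 1.55, 1.47 and 1.49. The sucrose-binding protein (PSOLI00636), a relative of the vicilins, gave -2.80, -2.92 and -2.80, the fourth lowest mean of the array.

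Oil body and late embryogenesis products were called lower in 5 and higher in 5 of 12 probes (3 higher at 1 spread). Oleosins, which coat oil bodies, were lower on both probes, at -1.77, -1.62 and -1.83 for P24 oleosin isoform A (PSOLI04150) and at -1.42, -1.37 and -1.44 for the 16 kDa oleosin (PSOLI04214). A desiccation protectant of the Lea14 kind (PSOLI00797) was at -1.13. The small hydrophobic membrane protein RCI2B, known from cold response, was higher on both probes, at 1.25 (PSOLI04494) and 1.28 (PSOLI02631). Universal stress proteins went apart, with PSOLI04490 at 1.89, 1.85 and 1.90 and PSOLI04288 at -1.57, -1.33 and -1.38.

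Antioxidant and thiol enzymes, which remove reactive oxygen or reduce disulphides, were called lower in 8 (5 at 1 spread) and higher in 4 of 14 probes. Peroxidase 42 (PSOLI00944) gave -1.74, -1.58 and -1.62, glutathione peroxidase (PSOLI04501) gave -1.56, -1.66 and -1.62, and monodehydroascorbate reductase (PSOLI00933), which recycles ascorbate, gave -1.43, -1.49 and -1.42. Type 2 peroxiredoxin (PSOLI04083) was at -1.26 and mitochondrial superoxide dismutase 2 (PSOLI04797) at -1.03. Those that rose were thioredoxin H-type (PSOLI04247), at 1.29, 1.20 and 1.27, a formaldehyde dehydrogenase that uses glutathione (PSOLI05210), at 1.06, and ferritin-3, the plastid iron store, on both probes. The higher of these, PSOLI03272, gave 1.83, 1.79 and 1.79, and the other, PSOLI00243, gave 1.06, 1.16 and 1.09.

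In oxylipin synthesis, which leads to jasmonate, the reductase OPR1 (PSOLI04604) gave 1.78, 1.72 and 1.87 while 12-oxophytodienoate reductase 2 (PSOLI04233) gave -1.40, -1.38 and -1.46. A 9-cis-epoxycarotenoid dioxygenase (PSOLI04123), of the kind that controls abscisic acid synthesis, was lower at -1.23. Enzymes of secondary metabolism were called lower in 9 of 11 probes. A cytochrome P450 (PSOLI00480) was the lowest, at -1.90, -2.00 and -2.14, and a chalcone-flavanone isomerase (PSOLI01777) was the only one called higher, at 1.03, and was not called at 1 spread.

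Cytoskeletal products showed a division between isoforms. Of 6 tubulin probes 5 were called lower, all of them beta chains, from -1.08 to -2.26. The lowest, beta-1 (PSOLI01512), gave -2.21, -2.48 and -2.08, whereas the alpha chain (PSOLI03966) was higher at 1.35, 1.25 and 1.31. Of 9 probes for actin and its binding proteins 6 were called lower and 3 higher. Actin-7 (PSOLI04417) gave -2.15, -2.11 and -2.08. Profilin-1 (PSOLI04268), which binds free actin, and an actin-depolymerizing factor (PSOLI05156) had means of -1.66 and -1.76. Both probes of actin-3 rose, at 1.08 (PSOLI02621) and 1.17 (PSOLI04421).

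Small GTPases and other products of vesicle traffic were called lower in 15 of 20 probes and higher in 4 (2 at 1 spread). The GTPase activator ZIGA2 (PSOLI00549) gave -2.10, -2.36 and -2.19 and a Rab GDP dissociation inhibitor (PSOLI00760), which takes Rab proteins off membranes, gave -2.17, -2.07 and -2.08. ADP-ribosylation factor 2, a GTPase of coat formation, was at -1.60 on PSOLI04253 and at 1.03 on PSOLI02709. The GTPase Rab7, of late endosomes, was at -1.55 on the probe named Rab7A (PSOLI04188) and at 1.19 on PSOLI01253.

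Among histones and their partners, 6 of 12 probes were called lower, 1 higher and 5 neither. Several lay at the limit, so that without replicate 2 the counts were 8 lower and 4 higher, and without replicate 1 they were 6 and 2. A histone H3 (PSOLI04463) was the lowest in that list, at -1.78, -1.88 and -1.72, and a nucleosome assembly protein (PSOLI01556) was the only one called higher, at 1.65, 1.51 and 1.75. PSOLI01229, outside this list and named hypothetical there, but given in another list of the study as the nucleolar histone deacetylase HD2-P39, gave -2.15, -2.28 and -2.34. Transcription factors were called lower in 9 of 14 probes. A MYB protein (PSOLI00544) gave -1.69, -2.19 and -2.01. The NAC proteins, a family known from senescence and stress, were at -1.95 (PSOLI00679), -1.32 (PSOLI00791) and -1.31 (PSOLI04492), and a further NAC-type probe (PSOLI01141) rose to 1.20. The homeobox protein KNAT3 (PSOLI02259) gave 1.31, 1.31 and 1.37.

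The highest and lowest ranks also held products outside these lists. PPLZ12 (PSOLI00465) gave -2.52, -2.39 and -2.49, an NADP-dependent oxidoreductase P1 (PSOLI00684) gave -2.42, -2.36 and -2.34, and a ferredoxin-NADP reductase (PSOLI05031) gave -2.39, -2.51 and -2.12. A protein like G3BP, an RNA-binding component of stress granules in animal cells (PSOLI00542), was at -2.21. Among the highest were Patellin-5 (PSOLI02696), of a family of lipid-binding proteins in membrane traffic, at 2.32, 2.37 and 2.34, a helicase domain protein (PSOLI02672) at 1.86, 1.90 and 2.01, and a copper-binding protein (PSOLI02184) at 1.77, 1.79 and 1.73. Of the 25 highest probes 11 were hypothetical proteins.

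Hypothetical proteins, predicted from the sequence alone, made up 45.9% of probes called higher and 7.53% of those called lower. In numbers they were 136 of the 296 (89 at 1 spread) and 28 of the 372. The list names 187 such probes among its 717, and their median at 15 d was 1.08. The highest, PSOLI01670, gave 1.87, 2.04 and 2.14, with replicate 1 the lowest, and PSOLI01569 gave 2.03, 1.80 and 2.05, with replicate 2 the lowest. The list of products gives them no function, although another list of the study names PSOLI01229. Some also share an accession number with a named product, such as PSOLI03369 with the processing peptidase alpha subunit and PSOLI03410 with a 3-ketoacyl-CoA synthase.

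The 26 probes whose identifiers begin with PCPS carry no product name and no description in the sources used here. Most lay near 0, but 6 were called lower and 2 higher, 30.8% of the 26 against 12.7% over all probes. PCPS08 gave -2.78, -2.82 and -2.63, the eighth lowest mean of the array, and PCPS23 gave -2.17, -2.16 and -2.18. PCPS07 and PCPS26 had means of -1.95 and -1.82. On the other side PCPS13 gave 1.94, 1.77 and 2.02, and PCPS17 gave 1.81, 1.78 and 1.76. Without these 26 probes, 294 were called higher and 366 lower. A further 15 called probes had no product name, all between 1.00 and 1.17 in size.

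Probes given 1 accession number did not always move alike. Among 40 accession numbers with more than 1 probe, holding 85 probes, 21 had 1 sign at 15 d and 19 both signs. In 16 of these 19, probes were called in both directions. Accession numbers came from the study's list, chosen by fold change on these arrays, which favours calls in both directions wherever signs differ. Of all 717 named probes 284 were called higher and 361 lower, so unrelated named probes would often differ in sign too. Whether 19 of 40 departs from that share was not tested. The widest gap was for elongation factor 1-alpha, with PSOLI01474 at -3.21 and PSOLI03999 at 0.98, 1.17 and 1.04. Their shared identifier is a short protein name that gives no species, so it need not stand for 1 protein sequence. Initiation factor 4A had 2 probes at -2.55 and -1.49 (PSOLI00629 and PSOLI04311) and another at 1.25, 1.17 and 1.22 (PSOLI02308). For Patellin-5, PSOLI01330 had a mean of -1.20 and PSOLI02696 of 2.34.

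The same was seen in subunits of larger complexes. L22-2 had a second probe, PSOLI04931, at 0.99, 1.05 and 1.08. The E1 beta subunit of pyruvate dehydrogenase had PSOLI02739 at 1.23, 1.12 and 1.14 beside PSOLI00986 at -1.48. Subunit 3 of the non-ATPase part of the proteasome had -1.06 on PSOLI05103 and 1.32 on PSOLI04626. Ubiquitin had -1.52 on PSOLI03835 and 1.07 on PSOLI04735. An accession number is the closest match of a pea sequence and can be shared by related genes. Which gene each probe binds was not tested, and what the array measured for these proteins depends on the probe.

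**Figure D3:**
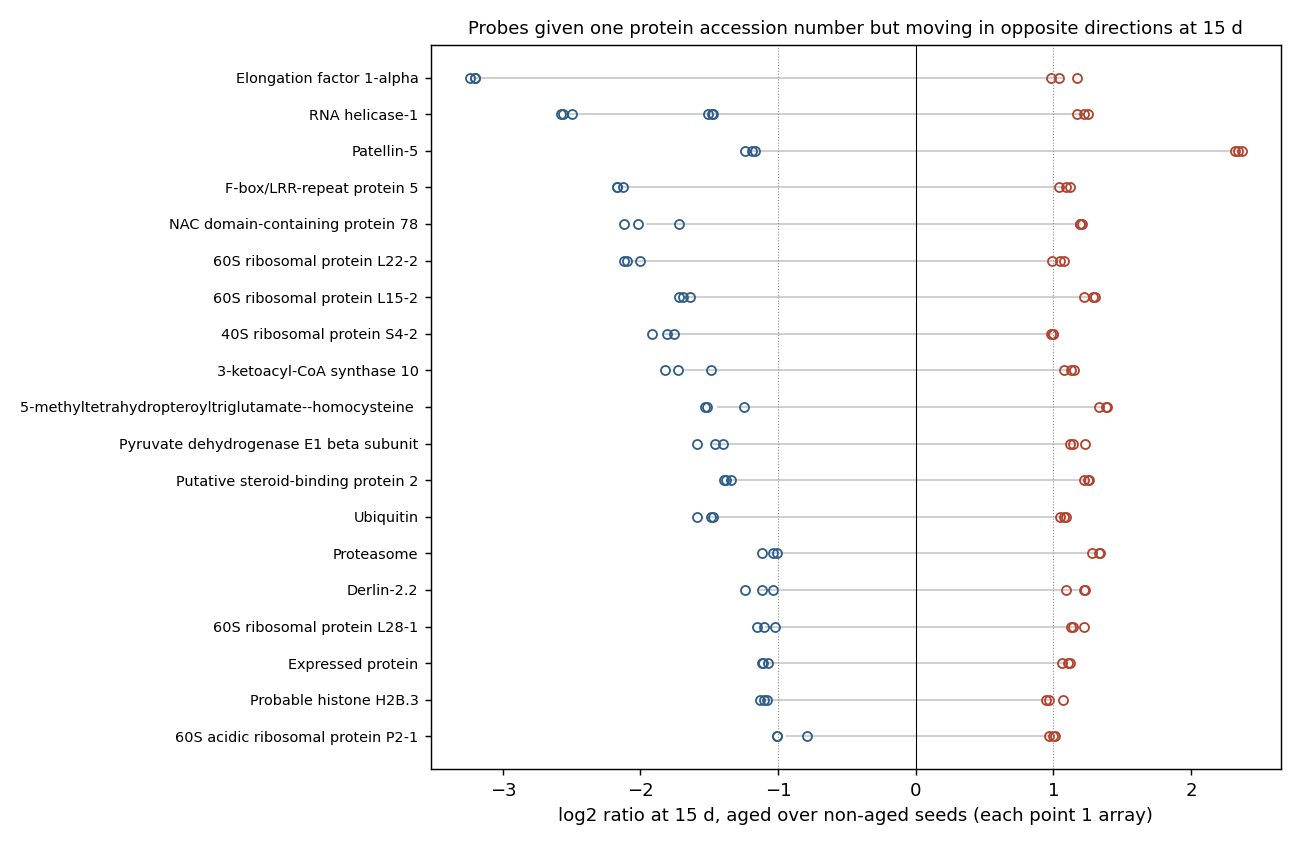
Log2 ratios at 15 d of probes that were given the same protein accession number and lie on both sides of 0. Each point is 1 array, rows are the 19 accession numbers, labelled by the product of their lowest probe, and dotted lines mark -1 and 1. The widest row, elongation factor 1-alpha, runs from -3.24 to 1.17, and its identifier is a short protein name that gives no species. Within each row the arrays of 1 probe stay on 1 side of 0.

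Calls were unevenly spread along the probe numbers, which the choice of arrays did not use. Among probes 501 to 1000, 20.4% were called lower and 1.8% higher, against 7.09% and 5.64% over all probes. Among probes 4001 to 4500, 16.6% were called lower and 3.8% higher. In contrast, among probes 3001 to 3500, 10.2% were called higher and 0.4% lower, and 40 of the 500 were hypothetical proteins. The band medians were -0.11, -0.08 and 0.13. At 8 d they were -0.12, -0.06 and 0.10. What the order of probe numbers stands for is not given in the sources used here, and the place of the spots on the array was not analysed here.

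**Figure D4:**
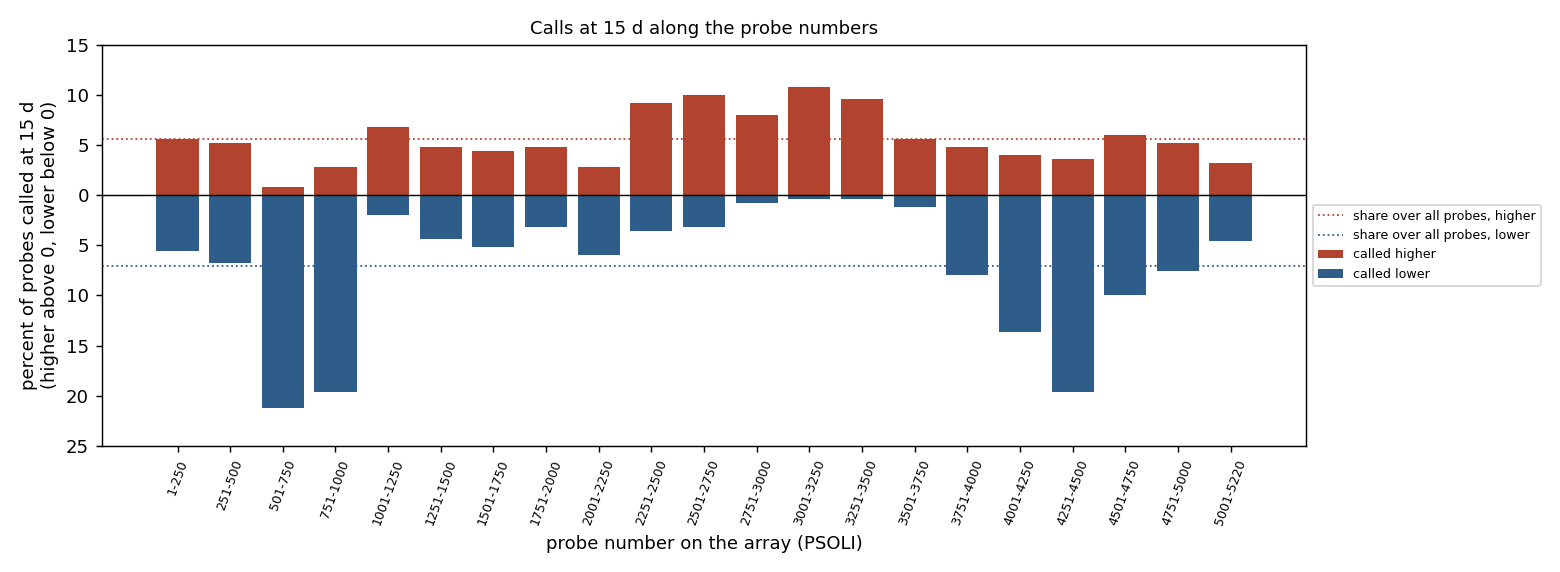
Percent of probes called higher (above 0) and lower (below 0) at 15 d, in bands of 250 consecutive probe numbers, with dotted lines at the share over all probes (5.64% and 7.09%). The share called lower is highest at 501 to 750, at 21.2%, and falls to 0.4% at 3001 to 3500, where the share called higher is 10.8% and 9.6%.

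Few called probes varied much among the 3 arrays. The largest SD was that of DNA photolyase (PSOLI00493), an enzyme of light-driven DNA repair, at -0.65, -1.33 and -1.41, where replicate 1 lay apart and the mean without replicate 3 was -0.99, short of the limit. A nucleoporin (PSOLI00821) gave -0.87, -1.44 and -1.04 and fell short of the limit without replicate 2, at -0.96. The GTP-binding protein-like 3 (PSOLI00372) gave -1.42, -1.99 and -1.72. Hypothetical probes PSOLI00501 and PSOLI03748 had SDs of 0.30 each. In all, 16 of the 668 called probes had an SD of 0.2 or more. At the other end, amylogenin (PSOLI04316) gave -1.11 on every array. With aged seeds in the other dye, replicate 2 differed from the mean of the other replicates by a median of -0.01 among probes called higher and -0.02 among those called lower.

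At 15 d, 1993 probes differed from 8 d at an adjusted p under 0.05 (38.0%), 1037 of them higher (19.8%) and 956 lower (18.2%). From 12 d, 1270 differed (24.2%), 634 higher and 636 lower (12.1% each). With every array brought to 1 spread that number was 614. Most called probes were further from 0 than at 8 d. This held for 239 of the 296 called higher and 301 of the 372 called lower, while 4 and 2 were nearer to 0. Counted in the same way over all 5246 probes, 1762 moved further in the direction of their 15 d sign and 231 the other way. Calls were made on the 15 d mean itself, which favours probes that lie further from 0 at 15 d. The arrays of 15 d had a wider spread as a whole, with a median absolute deviation of 0.445 to 0.460 against 0.385 on each array of 8 d and 0.400 on each of 12 d. The arrays of 1 time had nearly the same spread and those of different times did not, and whether the authors scaled the arrays of each time separately is not given in the sources used here. A difference between times can therefore hold a difference in scale. With every array brought to 1 spread, 96 higher and 149 lower calls were still further from 0, and 13 and 27 were nearer.

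Some probes fell late, or fell further after an earlier fall. Convicilin (PSOLI00637) was near 0 at 8 d, with a mean of -0.07, and at -0.32 at 12 d, against -1.37 at 15 d. The sucrose-binding protein (PSOLI00636) had means of -1.60 (8 d), -1.62 (12 d) and -2.84 (15 d). Elongation factor 1-alpha (PSOLI01474) went from -2.09 through -2.38 to -3.21. The albumin precursor (PSOLI04531) and the ribosomal protein L32-1 (PSOLI04324) rose late, the first from 0.61 and the second from 0.45 at 8 d, to 1.25 and 1.12. Translationally-controlled tumour protein (PSOLI04617), a conserved growth-related protein, went from -0.78 to -1.48. A hypothetical protein (PSOLI01600) changed between 8 d and 12 d, from 0.66 to 1.86, and stood at 1.76, 1.69 and 1.72 at 15 d.

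Some probes had been further from 0 at 8 d than they were at 15 d. A cysteine proteinase of the RD21 kind (PSOLI04472), a papain-like protease of the vacuole, gave -0.02, 0.21 and 0.08 at 15 d and a mean of 0.11 at 12 d, against 1.73 at 8 d. An unnamed probe, PSOLI02456, gave -0.27, -0.08 and 0.06, against 1.78 at 8 d and 0.53 at 12 d. A peroxidase (PSOLI00489) had a mean of 0.15 against 1.20, phosphofructokinase (PSOLI03813) 0.29 against 1.04, and the formaldehyde dehydrogenase PSOLI05002, which uses glutathione, 0.66 against 1.72 at 8 d and 0.85 at 12 d. Probes called at 8 d or 12 d but not at 15 d numbered 39 on the higher and 19 on the lower side. Of these 33 and 19 still passed the test in the same direction at 15 d. Among the 33 was PCNA (PSOLI02321), the sliding clamp of DNA replication, at 1.04, 1.01 and 0.94. It had been called at 12 d only, with a mean of 1.06, and was lower at 8 d, at 0.72. Argininosuccinate synthase (PSOLI04292), of arginine synthesis, was at -0.63 against -1.11 at 8 d.

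**Figure D5:**
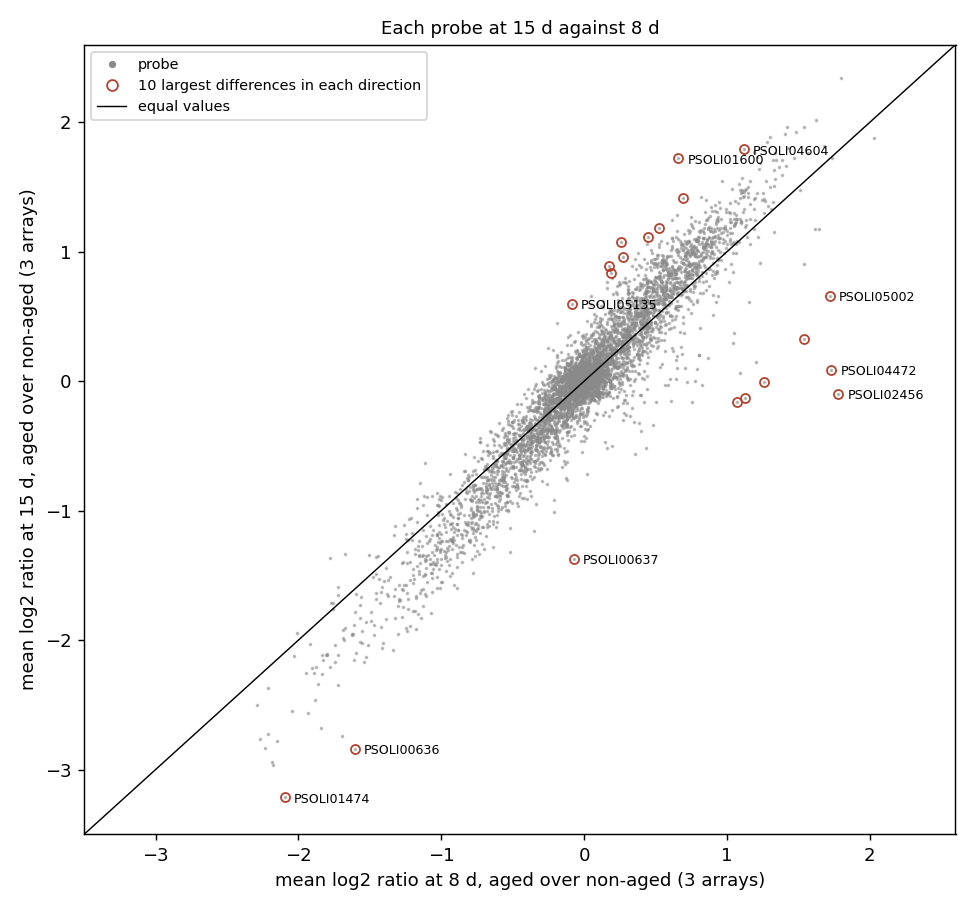
Mean log2 ratio of each of 5246 probes at 15 d (vertical) against 8 d (horizontal), aged over non-aged seeds, 3 arrays each. The line marks equal values and circles the 10 largest tested differences in each direction. Convicilin (PSOLI00637) lies at -0.07 and -1.37, while PSOLI02456, at 1.78 and -0.10, and PSOLI04472, at 1.73 and 0.09, lie to the right.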

How the data were processed

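Total RNA (1 µg) from aged and non-aged pea seeds was amplified, labelled with Cy3 or Cy5 and hybridised to an array of 5246 oligonucleotide probes with replicate spots. The authors corrected background, applied print-tip loess within arrays and scaled between arrays in limma (version not given in the sources used here), and deposited 1 log2 ratio per probe and array, in steps of 0.01 and with no missing value. Dyes were exchanged on replicate 2, and ratios had been turned to 1 direction. It was taken as aged over non-aged, since 716 of the 717 probes of the study's list of ratios have the sign given there. The exception lies at -0.01.

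The 9 arrays were fitted in limma 3.58.1 (R 4.3.3) with a mean per ageing time, contrasts between times, and Benjamini-Hochberg adjustment over 5246 probes. There were 6 residual degrees of freedom. Calls were made at an adjusted p below 0.05 together with a 2-fold change either way. The number of arrays limits precision, and nothing says that replicates were grown or aged apart, so that p-values measure the spread between these samples only. The fit was tested on simulated data. Products were placed in lists by words in their names, with Python 3.11.15 and pandas 2.3.3. The members, lists and rules were chosen with earlier results of these data known. Probes named are the 25 highest and lowest, the extremes and main roles of each list, accession numbers with both signs, the largest differences from 8 d, probes called earlier only, and the extremes of SD. PSOLI04531, PSOLI04617, PSOLI01595, PSOLI00496 and the PCPS probes were named after their values were seen. Of 549 accession numbers 0 matched the reference annotation, so that no positions or sequences are given. Alternatives were 15 d alone, a dye term, a replicate block, centring, scaling, leaving out each replicate, other thresholds, limma's treat and, added later, leaving out the PCPS probes.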

Additional observations from a re-analysis of the deposited data

Results flagged for a closer look

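The 10 largest differences between 15 d and 8 d in each direction passed limma's contrast, with adjusted p of at most 5.8e-06. All 20 kept their direction and passed again with every array brought to 1 spread, where the smallest was 0.45 in size. Values are 15 d minus 8 d in log2 ratio, with an SE between 0.053 and 0.118.

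Lower at 15 d were PSOLI02456 (no product name) by -1.88, the cysteine proteinase PSOLI04472 by -1.64, convicilin PSOLI00637 by -1.30, the hypothetical PSOLI03419 by -1.27, PSOLI04208 (no product name) by -1.25, the sucrose-binding protein PSOLI00636 by -1.24, the hypothetical PSOLI05102 by -1.23, PSOLI05042 (no product name) by -1.21, elongation factor 1-alpha PSOLI01474 by -1.12 and the formaldehyde dehydrogenase PSOLI05002 by -1.06. For PSOLI04208 and PSOLI05042 the ratios at 15 d were -0.13 and 0.33, against 1.12 and 1.54 at 8 d.

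Higher at 15 d were the hypothetical proteins PSOLI01600 by 1.06, PSOLI03179 by 0.82 and PSOLI02565 by 0.72, PSOLI01261 by 0.71, PSOLI02400 by 0.69 and PSOLI05135 by 0.68, OPR1 (PSOLI04604) by 0.67, the ribosomal protein L32-1 (PSOLI04324) by 0.67, the beta subunit of the processing peptidase (PSOLI01338) by 0.66, and PSOLI01284 by 0.65. PSOLI01261, PSOLI02400, PSOLI05135 and PSOLI01284 have no product name and were not called at 15 d.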

How the results depend on the processing

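The 296 higher and 372 lower calls stayed within 1.5 times in every fit tried but 1. With every array brought to 1 spread, 196 were called higher and 319 lower, and 614 probes differed between 15 d and 12 d in place of 1270. Without 1 replicate at a time, 302 to 307 were called higher, 368 to 379 lower, 1889 to 1930 passed the test higher and 1679 to 1708 lower. Then 1424 to 1498 probes differed between 15 d and 8 d, and 702, 747 and 758 between 15 d and 12 d without replicate 1, 2 or 3. Fewer samples stood in those fits. Thresholds moved the calls by construction. With no fold limit 2006 were higher and 1797 lower, at a log2 ratio of 1.5 these were 38 and 133, and limma's treat against 2-fold called 164 and 297. As accession numbers of named probes they were 177 and 333. Same-numbered replicates of different times did not vary together (r of -0.01 to 0.06), and with the number as a replicate block 296 and 372 were called and 1981 and 1244 differed from 8 d and 12 d. A dye term left 294 and 370. None of the 26 list medians changed sign under the settings tried. Counted for each list and setting, 22 median values moved by more than the spread between arrays. Most of these did so with every array brought to 1 spread, which shrinks the values of 15 d. Counts of calls in the lists moved by more than 1.5 times in 12 cases with every array at 1 spread, and in 3 cases without 1 replicate. Of 162 named probes 28 crossed the limit under 1 setting or more and 0 reversed.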

Other observations

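Groups from the study's functional lists, chosen by the study on these arrays, were divided at 15 d as well. Of 21 products often used as reference genes in expression studies, 9 were called higher, 10 lower and 2 neither. They ran from -3.21 for elongation factor 1-alpha (PSOLI01474) to 1.23 for phosphoglycerate kinase (PSOLI04847). Polyubiquitin (PSOLI02850) gave 1.07, 0.97 and 1.20 and actin-1 (PSOLI04743) gave -1.31, -1.39 and -1.26. Of 11 protein kinases and phosphatases 5 were called higher and 3 lower. Each of the 5 lay between 1.04 and 1.26, the highest a leucine-rich repeat kinase (PSOLI05111), while the kinase APK1B (PSOLI00380) gave -1.73, -1.51 and -1.85. Of 13 proposed or known regulators of programmed cell death 7 were called higher and 3 lower, among the higher the papain-like cysteine proteinase PSOLI04496 at 1.10, 1.02 and 1.11. Bax inhibitor 1 (PSOLI01240), which restrains cell death, passed the test at 0.74, 0.77 and 0.81 and missed the fold limit.

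In the class of RNA processing and modification that the study assigned, picked here after its values were seen, 6 of 10 probes were called lower and 4 higher, with a median of -1.10, against 361 lower and 284 higher of all 717 named probes.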
